A study of Mus musculus with 2 samples.

Results

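Ly6c2 Ccr2 monocyte-like cells were taken from single-cell RNA profiles of CD45-positive cells sorted from AB1-HA tumours, a mouse mesothelioma line grown in mice. The 2 groups were tumours of mice given an anti-VEGF antibody and tumours of mice given a control antibody, with 1 library of the 10x Genomics 3-prime chemistry in each, so no difference between the groups could be tested against replicate error. Dose, time of collection, strain and the number of mice per library are not given in the sources used here. A cell entered when it had at least 300 genes, at least 5000 UMIs (molecules counted once each by a molecular identifier), at most 10% mitochondrial UMIs, at most 2 UMIs of the collagen genes Col3a1 and Col1a2 together, at least 1 UMI of Csf1r, none of Cd3e and at least 1 of Ly6c2. Of 20512 deposited barcodes, 14121 passed the quality filter, 11893 passed the gate on Csf1r, Cd3e and collagen, and 535 of those carried Ly6c2. The 500 cells with the highest mean log level of Ly6c2, Ccr2, Plac8, Ms4a4c and F10 were the members: 285 from the anti-VEGF library and 215 from the control library.

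Classical monocytes leave the bone marrow in a manner that depends on the chemokine receptor CCR2, carry the surface protein Ly6C, and enter inflamed tissue and tumours from blood. There they can lose Ly6C and take up macrophage genes such as the complement component C1q, or genes of antigen presentation, while cells newly arrived still carry genes of circulating monocytes such as Vcan and Hp. VEGF is a growth factor for blood vessels, and blocking it alters the vessels through which monocytes and oxygen reach a tumour.

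The 5 genes of the rule are given as a description only, since they chose the cells. Summed over all member cells, Ly6c2 had 187 CPM (UMIs of a gene per 1000000 UMIs of the cells summed) in the anti-VEGF library and 134 in the control library, and Ccr2 had 360 and 404 in the same order. Plac8, a gene of myeloid and other immune cells, had 1109 and 855, and F10, which encodes coagulation factor X, had 52.7 and 47.1. Detection was uneven across cells. Ly6c2 was counted exactly 1 time in 29.8% of anti-VEGF and 35.3% of control members, F10 was found in 37.2% and 34.0%, and all 5 genes together in 31.6% and 27.9%. After each cell was thinned to 5000 UMIs, 58.9% of anti-VEGF and 52.1% of control members still had a Ly6c2 UMI. Among collagen-expressing cells without Csf1r, which should lack the gene, the thinned shares were 0% of 381 cells and 0.897% of 223. Since every member had to carry a Ly6c2 UMI, the member shares follow from the rule and are not set against the level of free RNA, and for many cells a single count carried the gate. The score was 2.94 in the highest member, 1.24 in the median member and 0.248 in the lowest. The cells just outside began at 0.227, so the boundary cut through a continuous range.

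The Ly6c2 promoter is shown because the gene defined the population. The 300 bases run from 250 before to 50 after the start of transcription listed by RefSeq (build GRCm38.p6, chr15:75111922-75112221, minus strand). Capitals mark GAGGAAGT, a sequence bound by the myeloid factor PU.1, searched on both strands. It was found 2 times, beginning at -108 and at 27 from the start. The motif was present in 3.25% of all 27025 promoters of that length.
Ly6c2: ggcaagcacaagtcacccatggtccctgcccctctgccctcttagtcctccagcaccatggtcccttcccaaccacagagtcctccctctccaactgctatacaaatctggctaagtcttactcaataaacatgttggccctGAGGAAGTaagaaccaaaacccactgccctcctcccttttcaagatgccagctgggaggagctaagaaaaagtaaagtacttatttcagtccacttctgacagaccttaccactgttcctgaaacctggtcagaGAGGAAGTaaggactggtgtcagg

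The anti-VEGF library held 213948867 UMIs in 8825 barcodes and the control library 233687412 UMIs in 11687. Member cells summed to 7188877 UMIs in the anti-VEGF library and 6117385 in the control library. Their median depth was lower in the anti-VEGF library, at 16178 UMIs per cell against 22488 in the control library, while gated cells without Ly6c2 had 25340 and 25348. All intervals below are exact at 95% and cover counting error only, not differences between mice. In all, 35 barcode sequences occurred in both libraries, and none of them was a member in both.

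Members made up 5.22% of gated cells in the anti-VEGF library (285 of 5456, Clopper-Pearson interval 4.65 to 5.85) and 3.34% in the control library (215 of 6437, 2.91 to 3.81). The ratio of the shares was 1.56, with a counting interval of 1.31 to 1.88. Against all cells that passed the quality filter, the shares were 4.23% in the anti-VEGF library and 2.91% in the control library. When every cell was first thinned to 5000 UMIs, the ratio was 1.93, and with a minimum of 10000 UMIs per cell it was 1.41. By the rule's own score, 68 of the 100 top-ranked cells came from the anti-VEGF library and 32 from the control library. Of the 100 lowest-ranked members, 45 and 55 did, and of all members 285 and 215. The same score chose the members, so these ranks are not separate support for the difference in shares. Anti-VEGF members were also shallower, with a median of 16178 UMIs per cell against 22488 in control members. In the score of a shallow cell 1 UMI weighs more, and the part of depth in the ranks was not tested. With 1 library per group the shares and ranks are values of 2 sorted tumour suspensions, and variation between mice was not measured.

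The label was checked against 20 monocyte markers that the rule did not use, in members against the gated cells without a Ly6c2 UMI (5149 in the anti-VEGF library and 6209 in the control library). Here a gene is called when it differed at least 2-fold in the same direction in both libraries, among genes with a mean of at least 20 CPM, leaving out genes of the rule and the gate. Of 5388 genes tested, 178 (3.3%) were at least 2-fold higher in members and 49 (0.909%) at least 2-fold lower. Of the 20 monocyte markers, 14 reached the minimum level, 7 of them were called higher and none lower, and 13 were above 1 in both libraries. Their median log2 ratio was 1.09 in the anti-VEGF library and 1.23 in the control library, against -0.02 and -0.01 over all genes tested.

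Ly6c1, which encodes a Ly6C protein nearly identical to that of Ly6c2, had the widest difference. Its level was 170 and 117 CPM in anti-VEGF and control members, against 0.933 and 0.649 in gated cells without Ly6c2, ratios of 183 and 180. Reads of the pair can be assigned to either gene, so Ly6c1 is uncertain as separate support for the label. Thbs1, which encodes the secreted matrix protein thrombospondin-1, had 213 and 129 in members, against 10.99 and 8.98 in cells without Ly6c2 (ratios 19.4 and 14.3). Hp, the plasma protein haptoglobin also made by myeloid cells, was 28.7 and 20.3 times higher, from levels of 40.2 and 32.2. Vcan, the proteoglycan versican of classical monocytes, was 8.81 and 5.05 times higher. Cd14, the lipopolysaccharide co-receptor, was 2.13 and 2.58 times higher, from 1838 and 1587. Lyz2, the myeloid lysozyme, had ratios of 0.958 and 1.15 and did not mark the cells. The label therefore stood on markers beyond the rule, although not on every marker listed.

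Genes of mature macrophages were not scarce in the members as a whole. The 14 measured macrophage maturation genes had median log2 ratios of -0.10 and 0.05 against the other gated cells, and none was called in either direction. C1qa, a chain of complement C1q, had 2338 and 3114 CPM in members, against 2662 and 3080 in gated cells without Ly6c2. Apoe, the lipid carrier of macrophages, had 2805 and 5526 in members, against 2220 and 3752. The member cells thus carried monocyte transcripts together with macrophage transcripts at a level near that of the other Csf1r-positive cells.

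Some genes of those programmes changed steadily along the score order. The members were split into 5 bins of 100 by rank, and the 35 gated Ly6c2-positive cells below the cut were kept apart as cells outside. Ly6c1 had 701, 317, 124, 70.7 and 25.02 CPM from the top to the lowest bin, and 2.86 in the cells outside. Thbs1 had 949, 347, 85.5, 101 and 32.7, and 7.15 outside. Vcan had 233, 111, 66.4, 45.8 and 18.8, and 1.43 outside. All 3 were highest in the top bin by a wide margin and lowest in the cells outside. The 20 monocyte markers outside the rule did not fall steadily as a sum. They had 25467, 18062.5, 19048, 17354.5 and 19436 CPM over the bins, and 14161 in the cells outside.

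C1qa ran the other way, at 254, 1246, 2652, 3109 and 3474 CPM over the 5 bins, and 2341 in the cells outside. Trem2, a lipid receptor of tumour and tissue macrophages, had 144, 318, 528, 557 and 677. Summed over the 16 macrophage maturation genes, the level was 5193, 8254, 14192, 15126 and 17539. The cells at the top of the score therefore held the least C1q and the least of the list as a whole. Median depth also differed along the order, from 9819.5 UMIs per cell in the top bin to 41326 in the lowest, and 1 UMI weighs more in the score of a shallow cell. In cells thinned to 5000 UMIs the same sums over the main bins were 4850, 7746, 11856, 13484 and 16176, with the order of cells still that of the unthinned score.

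Antigen presentation by class II molecules, which display peptides to CD4 T cells, was highest in the middle of the order. H2-Aa had 3165, 4042, 3933, 2674 and 1990 CPM over the 5 bins, and 481 in the cells outside. Cd74, the class II invariant chain, had 6524, 9423, 8408, 5780 and 4423. The inflammatory cytokine Il1b was highest at the top, with 3955, 2447, 1678, 1687 and 1245, and 179 in the cells outside. Type I interferon response genes summed to 2789, 2079, 1343, 968 and 555 over the bins, and in thinned cells to 2684, 1736, 1230, 860 and 574.

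Proliferation genes were lowest at the top. The 15 listed genes summed to 568, 1347, 2140, 2105 and 2741 CPM, and in thinned cells to 520, 996, 1780, 1890 and 2414. Mki67, a marker of cycling cells, had 11.9, 77.7, 115, 138 and 188, and Top2a, which untangles replicated DNA, had 2.75, 75.2, 158, 157 and 202. Lysosomal genes summed to 5857, 6768, 8107, 9442 and 11099. Genes shared with osteoclasts, the bone-resorbing relatives of macrophages, were lower in members than below the cut: Ctsk, the collagen-degrading cathepsin K, had 50.4, 163, 79.9, 345 and 491 in the bins and 3868 in the cells outside. The levels overlapped across the boundary at rank 500, since 89 anti-VEGF members (31.2%) and 91 control members (42.3%) had at least 3 UMIs of Acp5 and Ctsk, against 53.7% and 63.5% of gated cells without Ly6c2.

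**Figure D1:**
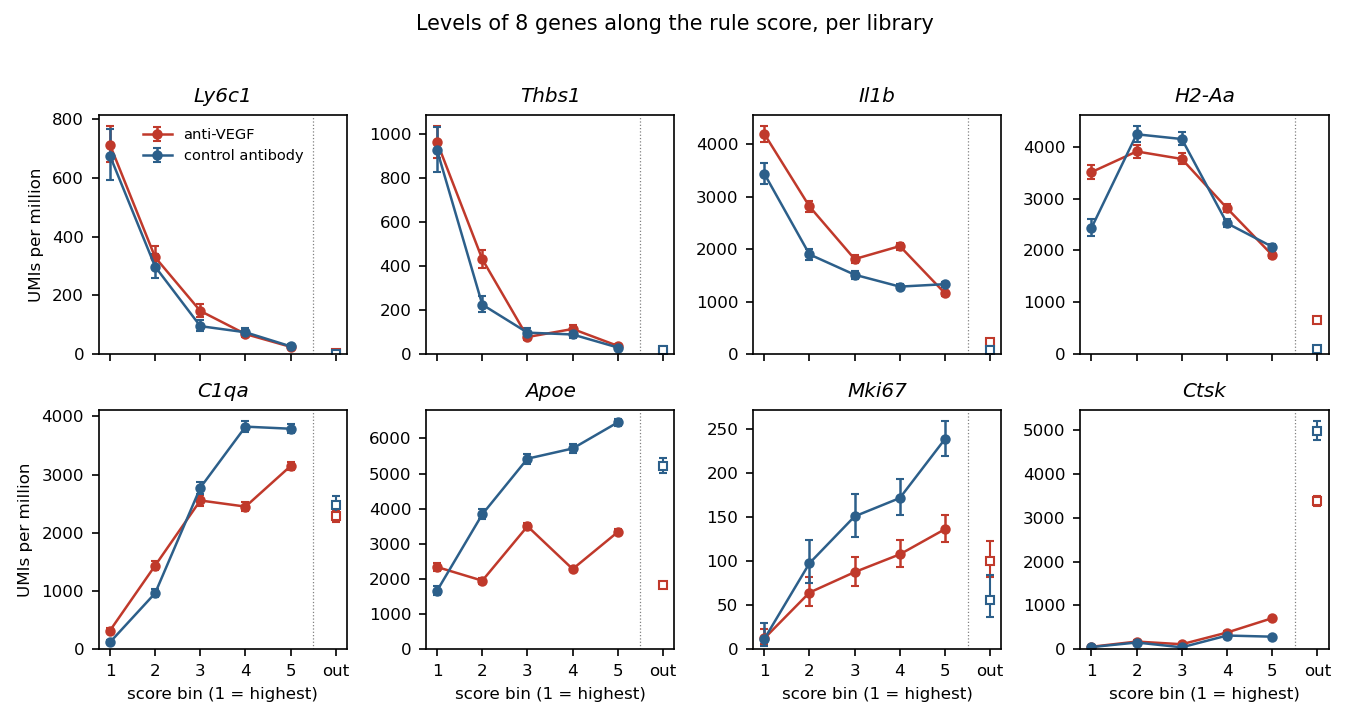
Levels of 8 genes (y axis, CPM, linear from 0, with its own range in each panel) in 5 bins of 100 members ordered by the rule's score and in the Ly6c2-positive cells outside (open squares), for the anti-VEGF and the control library, with 95% Poisson intervals. Ly6c1 and Thbs1 run downward from the top bin in both libraries, C1qa and Mki67 run upward, and Ctsk is highest in the cells outside.

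The score was also computed again after thinning, in the members already chosen. Depth did not enter that score directly, but it still entered the choice of members, which was made on unthinned counts. A deeper cell could pass the gate at a lower Ly6c2 level, so the correlations below are not free of depth. Spearman correlations between the thinned score and the thinned list sums, given as a description over 285 anti-VEGF and 215 control cells that share a library, were -0.38 and -0.42 for macrophage maturation, 0.46 and 0.40 for the type I interferon list and -0.30 and -0.44 for proliferation. The hypoxia list was nearly unrelated to the score, at 0.04 and 0.07, but was correlated with glycolysis at 0.63 and 0.57. Macrophage maturation and lysosomal genes were correlated at 0.53 and 0.72. The monocyte markers outside the rule were only weakly correlated with the score, at 0.15 and 0.22. With macrophage maturation they were correlated at 0.07 and 0.18. Spread between cells was wide: of 5000 UMIs per cell, macrophage maturation genes took a median of 32 in anti-VEGF members (lowest 1, highest 219) and 51 in control members (lowest 1, highest 271).

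Class II genes were higher in members than in the sum of the other gated cells. Of the 7 measured class II genes, 6 were called at least 2-fold higher in both libraries, with median log2 ratios of 2.12 and 1.96, and Ctss, the cathepsin that trims the invariant chain, was not among them. H2-Aa had 2911 and 2793 CPM in anti-VEGF and control members, against 635 and 671 in gated cells without Ly6c2. Members lay below the class II-high cells described further on: the 9 listed genes summed to 15529 and 15388 CPM in members, against 43587 and 42738 in class II-high cells and 4999 and 5052 in all gated cells without Ly6c2. Class I genes were above 1 in 9 of 9 cases in both libraries but none was called. Cd86, a co-stimulatory ligand for T cells, was 2.96 and 2.66 times higher in members, and Cd274, which encodes PD-L1, was 3.97 and 2.28 times higher.

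Inflammatory and interferon genes were also higher. Of 10 measured inflammatory genes 5 were called higher and none lower, of 13 type I interferon genes 7, of 12 interferon-gamma genes 4 and of 13 chemokines 5. Il1b had 2043 and 1531 CPM in members, against 297 and 295 in the other gated cells (ratios 6.87 and 5.19). Ptgs2, the prostaglandin synthase induced in inflammation, was 5.80 and 4.26 times higher, and Cxcl9, which attracts activated T cells, 5.88 and 5.23 times. Isg15, an antiviral ubiquitin-like protein, was 3.62 and 2.54 times higher and Gbp2, an interferon-induced GTPase, 4.16 and 2.91 times. Cxcl2, which attracts neutrophils, had 3824 and 2651 in members, against 1190 and 871. Every measured gene of the type I interferon, interferon-gamma and inflammatory lists was above 1 in both libraries.

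Promoters of the interferon genes are shown because these genes were high together in the members. Capitals mark the interferon-stimulated response element, spelled as GAAA, any 2 bases and GAAA, on either strand, within windows of the same length credited to RefSeq (GRCm38.p6). Isg15 lies at chr4:156200769-156201068 (minus strand), with overlapping matches beginning at -78, -72 and -66. Gbp2 lies at chr3:142620413-142620712 (plus strand), with 1 match at -59 on the opposite strand. The element was found in 7 of 12 type I interferon promoters (58.3%) and in 7 of 11 interferon-gamma promoters (63.6%), against 3.49% of all promoters. A match describes letters only, not binding.
Isg15: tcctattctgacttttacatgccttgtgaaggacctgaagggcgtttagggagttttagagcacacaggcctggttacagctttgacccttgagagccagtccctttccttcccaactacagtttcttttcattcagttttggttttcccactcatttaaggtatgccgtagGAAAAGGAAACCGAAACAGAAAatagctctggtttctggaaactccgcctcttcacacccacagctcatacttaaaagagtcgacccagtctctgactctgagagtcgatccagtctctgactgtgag
Gbp2: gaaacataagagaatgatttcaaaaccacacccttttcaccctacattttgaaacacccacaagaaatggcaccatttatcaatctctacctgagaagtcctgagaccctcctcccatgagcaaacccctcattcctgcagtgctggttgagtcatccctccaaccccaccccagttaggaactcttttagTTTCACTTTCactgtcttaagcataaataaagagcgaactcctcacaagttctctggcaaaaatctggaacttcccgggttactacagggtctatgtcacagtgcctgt

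Vegfa, the gene of the factor that the antibody targets, was 2.52 and 2.91 times higher in members than in the other gated cells, at 391 and 325 CPM against 155 and 112. Along the score order it had 519, 534, 406, 334 and 262, and 142 in the cells outside. Of the 13 measured hypoxia genes, which include Vegfa, the other gene called was Egln3, and the list's median log2 ratios were 0.28 and 0.42. Glycolytic genes had medians of 0.03 and 0.00. Nuclear genes of oxidative phosphorylation were below 1 in 15 of 15 cases in both libraries, with medians of -0.40 and -0.52, and none was called. Proliferation genes were below 1 in both libraries for 12 of 15, with medians of -0.56 and -0.22, and none was called. Against both comparators described further on, the proliferation medians had the opposite sign.

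Of 12 measured transcription factors 3 were called higher and none lower: Cebpb, which drives myeloid differentiation, had 1981 and 1908 CPM in members, against 821 and 755 in the other gated cells, Irf8 270 and 281, against 116 and 119, and Nr4a1, needed by the Ly6C-low monocytes of blood, 198 and 219, against 86.8 and 92.3. All 12 immediate early genes, which respond within minutes to stimulation and to tissue dissociation, were above 1 in both libraries, with medians of 0.81 and 0.82, and 2 were called. Adhesion genes were above 1 for 9 of 9, with medians of 0.65 and 0.62, and none was called.

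Among the most elevated genes of no list, Slpi, a secreted protease inhibitor, had 56.1 and 124 CPM in members, against 3.92 and 3.40 in the other gated cells. Ly6a, which encodes the interferon-inducible surface protein Sca-1, had 406 and 124, against 43.1 and 9.24. Napsa, an aspartic protease, was 6.93 and 7.73 times higher, and Cytip, a regulator of leukocyte adhesion, 5.80 and 6.35 times. Ccr9, a chemokine receptor, had 5.43 and 51.8 in members, against 0.243 and 0.260; 314 of its UMIs in control members lay in 14 cells with plasmacytoid dendritic cell genes and 3 in the other 201. Lower in members were the osteoclast-like genes, with 6 of 6 measured called. Ctsk had 376 and 222 in members, against 2639.96 and 2608 in gated cells without Ly6c2, and Acp5, the tartrate-resistant acid phosphatase, 338 and 294, against 2302 and 2498. The 8 listed osteoclast-like genes summed to 1024 and 720 CPM in members, against 6650 and 6554 in gated cells without Ly6c2, but to 762 and 231 in class II-high and 204 and 492 in the resident-like cells described next. Slc9b2, Atp6v0d2 and Tfrc, the transferrin receptor, were also lower, with ratios between 0.125 and 0.237.

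Comparators were chosen by score from the gated cells without Ly6c2: 500 cells highest in class II genes (203 anti-VEGF and 297 control) and 500 highest in the resident macrophage genes Selenop, Stab1, Mrc1, Folr2 and Cd163 (151 and 349), with 11 cells in both. Genes of a comparator's own score are not read against it. Fewer genes were called against the class II-high cells. In that comparison 23 of 5383 genes (0.427%) were at least 2-fold higher in members in both libraries and 6 (0.111%) lower, and 3 of 14 monocyte markers and 2 of 13 type I interferon genes were among the genes called higher. Clec4d, an innate receptor of monocytes and neutrophils, had 270 and 105 CPM in members, against 106 and 33.5 in class II-high cells. Thbs1 was 3.78 and 3.14 times higher. None of 12 interferon-gamma genes, 10 inflammatory genes or 13 chemokines was called in either direction, with median log2 ratios of -0.31 and -0.13, 0.06 and -0.01, and 0.35 and 0.10. The 12 transcription factors (medians 0.02 and -0.03) and 12 immediate early genes (0.03 and -0.10) had none called either. The same held for 9 adhesion genes (0.15 and 0.22) and 8 checkpoint and inhibitory ligand genes (0.03 and -0.13), which include Cd274. Il1b had 2043 and 1531 in members and 2068 and 2143 in class II-high cells. C1qa was lower in members, at 2338 and 3114, against 4889 and 5120.3. Over class II-high cells, proliferation genes had median log2 ratios of 0.29 and 0.47 and oxidative phosphorylation genes -0.01 and 0.18. The median of all genes tested was 0.10 and 0.14, and no gene of either list was called.

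Against the resident-like cells, 146 of 5384 genes (2.71%) were at least 2-fold higher in members and 120 (2.23%) lower. Of 12 macrophage maturation genes that the comparator's score did not use, 9 were called lower, with median log2 ratios of -1.42 and -1.23. C1qa had 2338 and 3114 CPM in members, against 6820.2 and 8155 in resident-like cells. Chemokines divided: 4 of 13 were called lower, among them Ccl8, at 929 and 1311 against 8331 and 7117, while Ccl5 and Cxcl3 were called higher. Class II genes were called higher for 6 of 7, monocyte markers for 6 of 14 and hypoxia genes for 4 of 13. Proliferation genes had medians of 0.12 and 0.58 and oxidative phosphorylation genes 0.01 and -0.02, and none was called. Vegfa was 3.27 and 5.19 times higher in members than in resident-like cells. Against the class II-high cells, none of the 13 hypoxia genes, Vegfa among them, was called. The list's median log2 ratios there were 0.43 and 0.29.

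**Figure D2:**
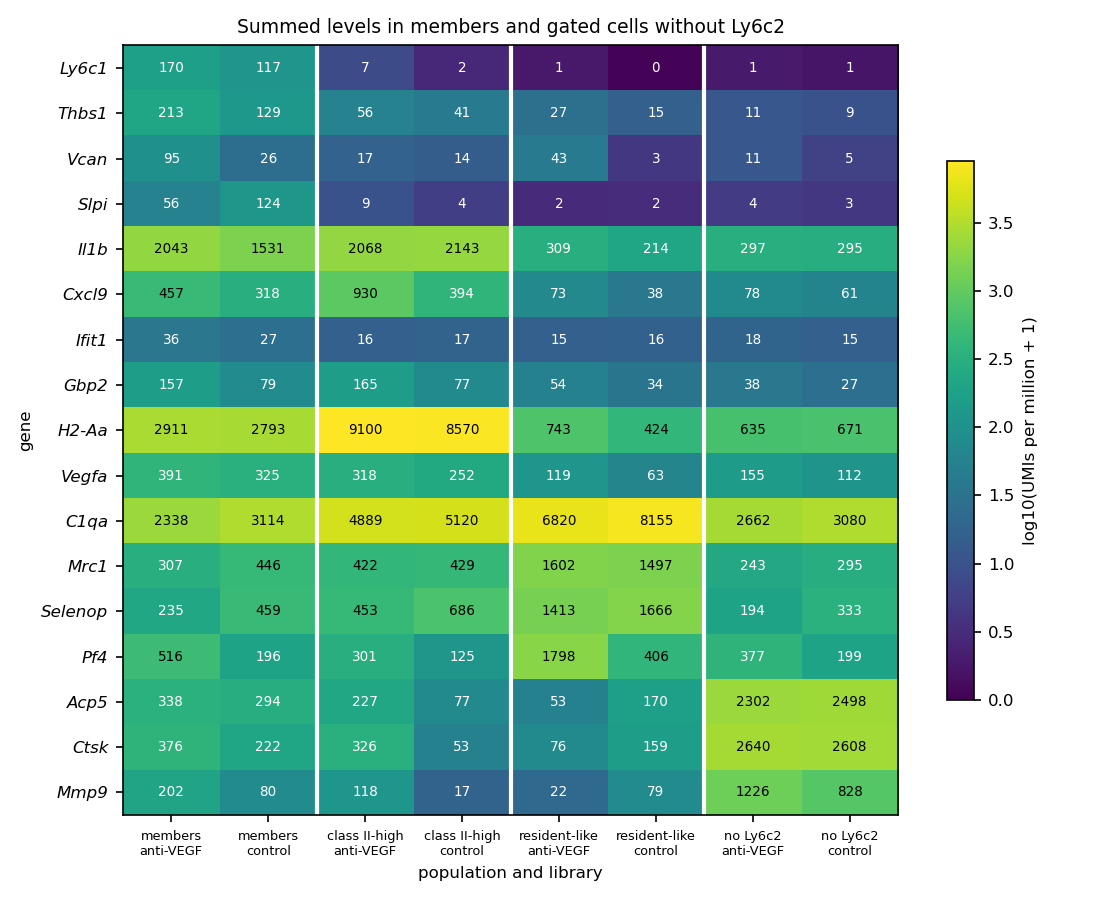
Summed levels (printed values, CPM; colour, log10 of the value plus 1) of 17 genes in members, class II-high cells, resident-like cells and all gated cells without Ly6c2, each for the anti-VEGF and then the control library. Ly6c1 stands high in members only, C1qa is lowest in members and highest in resident-like cells among the first 3 populations, and H2-Aa is highest in class II-high cells, which were chosen on it.

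Other cell types were looked for among the members before the libraries were compared. Members with at least 3 UMIs of S100a8 and S100a9, the calprotectin genes of neutrophils and early monocytes, numbered 29 (10.2%) in the anti-VEGF library and 4 (1.86%) in the control library. Among gated cells without Ly6c2 the shares were 5.15% (265 of 5149) and 2.13% (132 of 6209), so the libraries differed there too. Members with at least 3 UMIs of the plasmacytoid dendritic cell genes Siglech, Ccr9 and Klk1, a set chosen after its values were seen, numbered 2 (0.702%) and 14 (6.51%, interval 3.61 to 10.7). In gated cells without Ly6c2, 0 of 5149 and 1 of 6209 met the same criterion (upper bound for the anti-VEGF library 0.0716%). Plasmacytoid dendritic cells are also known to carry Ly6C and Plac8.

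The 14 control cells with plasmacytoid genes had 506 CPM of Siglech and 886 of Irf8, a transcription factor of dendritic cells and monocytes, against 0.362 and 217 in the other 201 control members. Cd14 was lower in them, at 511 against 1701, while C1qa was present, at 4814 against 2933. Lyz2 and Apoe were present too, at 10335 against 12111 and 7307 against 5337. The 14 cells had a median depth of 44648.5 UMIs, against 22488 in all control members. Whether these barcodes mixed different cells was not tested. NK genes (Ncr1, Gzma, Nkg7) reached 3 UMIs in 4 anti-VEGF and 9 control members, and Cd3d with Cd3g in 0 and 1. The whole neutrophil list of 10 genes summed to 511 CPM in anti-VEGF members and 51.8 in control members, with Ly6g at 0 in the anti-VEGF members. The plasmacytoid list of 9 genes summed to 449 and 719, with Ly6d at 0 in anti-VEGF members. T and NK genes summed to 52.6 and 136, B and plasma cell genes to 7.09 and 8.17 with Jchain at 0 in both libraries, and conventional dendritic cell genes to 63.2 and 66.4. Tumour and stromal genes summed to 8.62 and 6.21, with Krt18, Wt1 and Upk3b at 0 in both.

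Anti-VEGF and control members were compared gene by gene on summed UMIs, and a gene is called here when it differed at least 1.5-fold among genes with a mean of at least 20 CPM. Of 5381 genes, 166 (3.08%) were at least 1.5-fold higher in anti-VEGF members and 120 (2.23%) at least 1.5-fold lower. A ratio above 1 was found for 40.3% of genes and below 1 for 59.7%, with a median log2 ratio of -0.05. Scaling by TMM, which centred that median at 0.02, gave 217 higher and 82 lower.

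Hypoxia response genes, which cells switch on through HIF factors when oxygen is short, were higher in anti-VEGF members. All 13 measured genes had a ratio above 1, 8 were at least 1.5-fold higher, and the median log2 ratio was 0.70. Ankrd37, a HIF target, had 143 CPM in anti-VEGF members and 42.0 in control members, a ratio of 3.40 (interval 2.96 to 3.91). Bnip3, which acts in removal of mitochondria, had 279 and 124 (2.26, 2.07 to 2.46), and Ndrg1, a stress gene, 386 and 177 (2.18). Egln3, an oxygen-sensing hydroxylase of HIF, had 50.8 and 17.2. Vegfa itself differed less, at 391 and 325 (1.2, 1.13 to 1.27). Of the VEGF receptors, the co-receptor Nrp1 had 54.0 and 62.0, and Flt1, which binds VEGF on monocytes, had 17.1 and 9.15, under the minimum level.

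Glycolytic genes were higher too: 13 of 13 were above 1 and 9 at least 1.5-fold higher, with a median of 0.61. Pgk1, phosphoglycerate kinase, had 1188 CPM in anti-VEGF members and 591 in control members, and Slc16a3, the lactate exporter, 238 and 130. The hypoxia list was higher in every bin of the score order, at 3800, 3232, 3201, 3149 and 2716 in the anti-VEGF library against 1934, 2218, 2064, 1844 and 1669 in the control library. Gated cells without Ly6c2 had medians of 0.82 for hypoxia and 0.67 for glycolysis, above those of the members. Whether the populations differed in this could not be tested with 1 library per group.

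Promoters of the hypoxia genes with clear differences are shown with ACGTG, the core of the element bound by HIF, in capitals (both strands searched, same windows and source). Ankrd37 lies at chr8:45999801-46000100 (minus strand), with matches beginning at -241 and -6. Bnip3 lies at chr7:138909457-138909756 (minus strand), with matches at -108 and -107 that overlap on the 2 strands. The core was found in 9 of 13 hypoxia promoters in the table (69.2%) and 6 of 14 glycolysis promoters (42.9%), against 19.6% of all promoters.
Ankrd37: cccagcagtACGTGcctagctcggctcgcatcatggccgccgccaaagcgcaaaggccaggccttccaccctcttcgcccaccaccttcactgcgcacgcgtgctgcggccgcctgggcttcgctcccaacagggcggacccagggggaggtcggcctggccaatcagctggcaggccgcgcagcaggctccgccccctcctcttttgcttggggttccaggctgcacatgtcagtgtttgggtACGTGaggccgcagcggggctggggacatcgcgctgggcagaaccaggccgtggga
Bnip3: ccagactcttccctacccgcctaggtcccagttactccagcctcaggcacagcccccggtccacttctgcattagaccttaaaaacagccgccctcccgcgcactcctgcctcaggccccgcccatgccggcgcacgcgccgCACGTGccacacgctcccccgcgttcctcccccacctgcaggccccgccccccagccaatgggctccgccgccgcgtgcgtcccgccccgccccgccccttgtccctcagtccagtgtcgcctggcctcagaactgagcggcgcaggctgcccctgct

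Proliferation genes were lower in anti-VEGF members. All 15 had a ratio below 1, 7 were at least 1.5-fold lower, and the median log2 ratio was -0.58, against -0.36 in gated cells without Ly6c2. Mki67 had 97.7 CPM in anti-VEGF members and 178 in control members (ratio 0.549, 0.499 to 0.604). Rrm2, a subunit of ribonucleotide reductase, had 26.6 and 53.6, and was lower in all 5 bins of the score order, while Mki67 was lower in 4. Cells at the top of the score held the fewest proliferation UMIs, and the anti-VEGF library had more of such cells. The mix of bins therefore moved with this list. Over 12 alternatives, which include matching the libraries on score, the list's median ran from -1.26 to -0.47. The size of the part that the mix had in the pooled ratio was not tested. Within the bins the list sum was 628, 1296, 1803, 1751 and 2401 in anti-VEGF members, against 441, 1424, 2569, 2489 and 3070.2 in control members, lower in 4 of the 5.

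Macrophage maturation genes were below 1 for 13 of 14, with a median of -0.34, but 2 were at least 1.5-fold lower and 1 at least 1.5-fold higher. Apoe had 2805 CPM in anti-VEGF members and 5526 in control members (0.508), and Selenop, a selenium transport protein, 235 and 459 (0.512). Apoe was lower in 4 of 5 bins of the score order, and Selenop was lower in 3 and higher in 2. Pf4, a chemokine of platelets and some macrophages, went the other way at 516 and 196 (2.63, 2.46 to 2.81). C1qa had 2338 and 3114, and was lower in 3 of 5 bins. The share of high-score cells, greater in the anti-VEGF library, moved with this list as well. Over 12 alternatives, which include matching the libraries on score, the list's median ran from -0.69 to -0.05. The size of the part that this share had in the pooled ratios was not tested.

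Monocyte markers outside the rule were at least 1.5-fold higher in anti-VEGF members for 6 of 17 measured genes. Vcan had 95.0 CPM in anti-VEGF members and 25.5 in control members (3.73, 3.13 to 4.46), and was higher in all 5 bins. Clec4d had 270 and 105, and Clec4e, its partner in sensing mycobacterial and fungal lipids, 293 and 153. Thbs1 had 213 and 129, but was at least 1.5-fold higher in only 1 of the 5 bins.

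Interferon-gamma response genes were higher, with 11 of 13 above 1, 5 at least 1.5-fold higher and a median of 0.50, against 0.20 in gated cells without Ly6c2. Cd274 had 142 CPM in anti-VEGF members and 52.3 in control members (2.71, 2.39 to 3.08), and was past 1.5-fold in all 5 bins. Gbp2 had 157 and 79.1. Cxcl10, an interferon-induced chemokine for T cells, did not follow, at 351 and 374. Of 14 type I interferon genes 12 were above 1 and 2, Rsad2 and Isg15, at least 1.5-fold higher. Within the bins the type I list sum went both ways. It was 2605, 1952.5, 1587, 922 and 691 CPM in anti-VEGF members, against 3179, 2269, 1033, 1019 and 424 in control members. The part of the mix of bins in the pooled ratios was not tested. Class II genes hardly differed, with 0 of 7 past 1.5-fold and ratios of 1.04 for H2-Aa and 0.993 for Cd74.

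**Figure D3:**
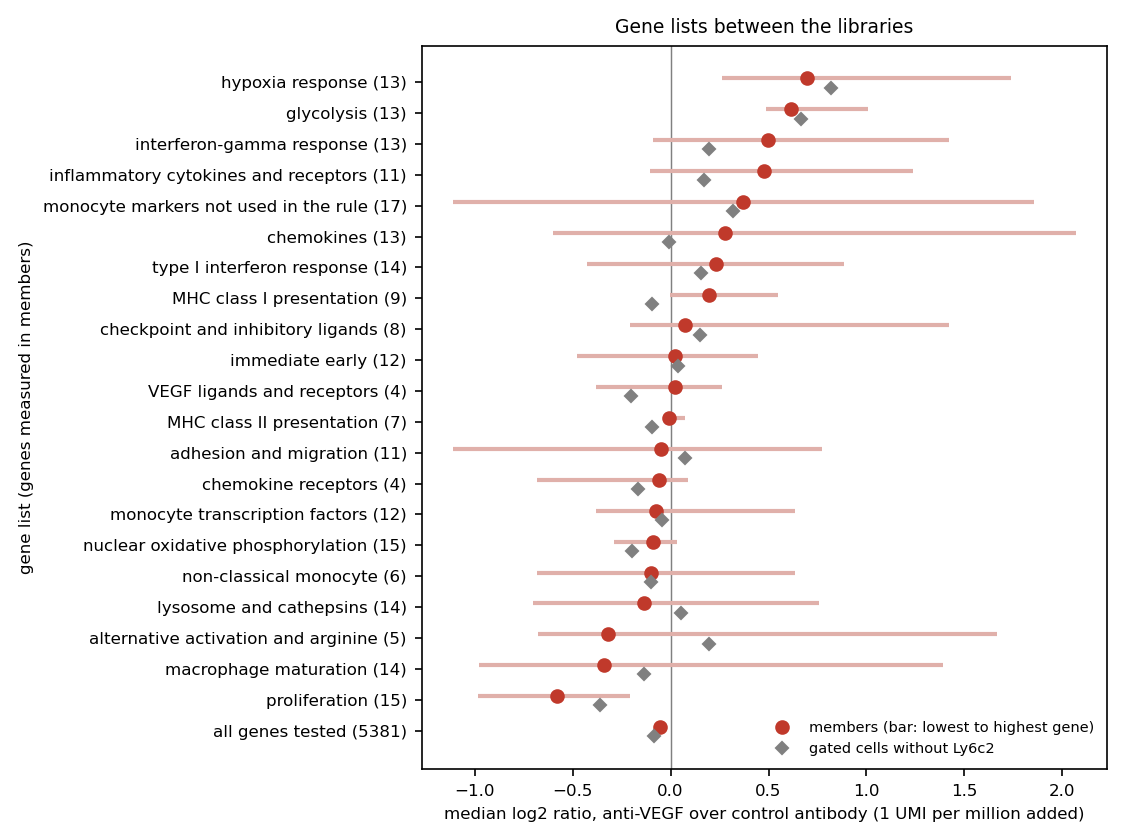
Median log2 ratio of anti-VEGF over control (x axis) for each gene list (y axis, number of measured genes in brackets) in members (red dots, with bars from the lowest to the highest gene) and in gated cells without Ly6c2 (grey diamonds). Hypoxia and glycolysis lie above 0 in both populations, at 0.70 and 0.61 in members, and proliferation lies below, at -0.58.

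Inflammatory genes were at least 1.5-fold higher for 4 of 11 and chemokines for 5 of 13, with 1 chemokine, Ccl12, lower at 491 and 745. Il1a, an alarm cytokine, had 34.1 CPM in anti-VEGF members and 13.9 in control members, and Il1b 2043 and 1531. Ccl6 had 1211 and 467 (2.59) and was higher in all 5 bins. Cxcl3, a neutrophil chemokine, had 127 and 29.6, of which 1 cell held 26.2% and 27.6% of the UMIs. Arg1, the arginase of suppressive myeloid cells, had 1669 and 670 (2.49, 2.41 to 2.58) and the cationic amino acid transporter Slc7a2 had 72.8 and 22.2. These were the 2 genes of the alternative activation and arginine list above 1; the other 3 of its 5 measured genes were below 1, Mgl2 past 1.5-fold, and the list's median was -0.32. Both were also higher in the gated cells without Ly6c2, with ratios of 2.65 and 5.09.

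Other genes far apart between the libraries included Ly6a, at 406 CPM in anti-VEGF members and 124 in control members (3.28), Acod1, the enzyme that makes itaconate, at 94.2 and 19.6 (4.8), and Inhba, which encodes the activin A subunit, at 70.8 and 13.2 (5.35, 4.22 to 6.85). Inhba had a ratio of 1.63 in cells without Ly6c2. Ly6a was higher in all 5 bins, most in the top bin, at 699 in anti-VEGF members against 34.3 in control members. The top ratios belonged to S100a9, at 226 and 2.78, and S100a8, at 165 and 12.9. S100a9 was found in 15.1% of anti-VEGF and 2.33% of control members, and 6.67% and 0.930% after thinning, so these sums came from a minority of cells. Of the other neutrophil genes, G0s2 and Csf3r reached the minimum level, with 45.3 and 1.47 CPM and 25.3 and 19.6. In gated cells without Ly6c2, the 2 genes of the neutrophil list that reached the minimum level had a median log2 ratio of 1.71. The part of neutrophil RNA in the S100a8 and S100a9 result was not tested.

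On the low side, Fcrls, an Fc receptor-like gene of macrophages and microglia, had 22.3 CPM in anti-VEGF members and 135 in control members (0.165, 0.139 to 0.196), and was past 1.5-fold in all 5 bins. Its ratio in gated cells without Ly6c2 was 0.344. Npl, which degrades sialic acid, had 20.6 and 64.9, Hpgds, a prostaglandin D synthase, 29.9 and 89.1, and Gas6, a ligand that bridges dying cells to Mertk, 45.9 and 110.01. Npl and Hpgds were lower in 4 of the 5 bins, but Gas6 was lower in 2 and higher in 3. Fcgrt, the neonatal Fc receptor, had 97.1 and 191 and was lower in all 5 bins. Slpi had 56.1 and 124, and the 14 control cells with plasmacytoid genes had 378 of it, against 97.3 in the other control members.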

How the data were processed

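Each deposited file holds unnormalised counts of UMIs by gene and barcode. Per the submitters' processing notes the authors used Cell Ranger 3.0.2 with build mm10, and a header line gives version 3.1.0. The matrices hold 31053 features, 71 of which share a symbol. The members, gene lists and comparators were chosen with earlier results of these data known. Scripts (Python 3.11.15, numpy 2.4.6, scipy 1.17.1, pandas 2.3.3) applied the filters given above, summed UMIs per population and library and scaled them to 1000000 (CPM). Log2 ratios used a pseudocount of 1 CPM; printed ratios have none. Lists were measured among genes with a mean of at least 20. With 1 library per group no test was made; intervals are Poisson for levels, conditional binomial for ratios and Clopper-Pearson for shares. Thinning drew 5000 UMIs per cell without replacement, and no member was left out by it. PCR duplicates are collapsed by the UMIs, but cells of a library are not replicates.

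Named genes are all list genes and, among genes with at least 50 CPM, the 12 most extreme at each end of a comparison (between libraries, also found in at least 20% of members of the higher library; predicted, ribosomal, mitochondrial and receptor genes left out). Promoter windows were those of the RefSeq table with the 5-prime-most start per gene. Scrublet (scanpy 1.11.5) called 0 and 1 doublets and so had not worked; as an alternative the top scores were removed, which marked 6.67% of anti-VEGF and 3.72% of control members. TMM factors came from edgeR 4.0.16. The counting steps were tested on simulated data. Alternatives were other member cuts, thinning before the gate, other scalings, filters and pseudocounts, removal of other-lineage cells, and matching on score; use of all gated Ly6c2-positive cells was added after the data were seen. A few listed genes are not reported here.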

Additional observations from a re-analysis of the deposited data

Results flagged for a closer look

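Cox6a2, a subunit of cytochrome oxidase known from muscle and from plasmacytoid dendritic cells, differed in opposite directions in the members and in the other gated cells. Its log2 ratio of anti-VEGF over control was -2.18 in members, at 9.04 CPM in the anti-VEGF library and 44.6 in the control library. In gated cells without Ly6c2 it was 0.82, at 5.92 and 2.93. The difference between these ratios was not tested, since each rests on 1 library per group. Cox6a2 stood at 455 CPM in the 14 control members with plasmacytoid genes and at 1.08 in the other 201 control members.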

How the results depend on the processing

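No paired analysis was possible because each group has 1 library. The share ratio of 1.56 was 1.92 for the top 300 cells and 1.93 for cells thinned before the gate, and 1.41 (1.16 to 1.71) with at least 10000 UMIs per cell; the other 3 settings gave 1.53 to 1.60. Genes at least 1.5-fold higher in anti-VEGF members (166) numbered 280 for the top 300 cells, 554 thinned, 722 with no filter on low values and 67 at 100 CPM. Those lower (120) numbered 597 thinned, 218 for the top 250 cells of each library, 200 with cells weighted equally, 964 with no filter and 17 at 100. Genes at least 2-fold higher in members than in cells without Ly6c2 (178) numbered 334 for the top 300 cells, 310 thinned, 364 with no filter and 56 at 100. Those lower (49) numbered 161, 131, 175 and 16 under the same settings, 87 with equal weights and 32 for all gated Ly6c2-positive cells. The filters change how many genes are counted; the cause of the other shifts was not tested. Thinning before the gate left 255 cells. A cut at 800 cells was not run, since 535 carried Ly6c2. Npl changed sign for the top 300 cells, to a log2 ratio of 0.027. Between libraries, Cxcl9, at 0.52 in the main setting, changed sign in 1 alternative, and H2-Aa, at 0.06, in 2. Other ratios kept their sign but shrank. At their weakest, S100a8 (3.58) was 0.45, Acod1 (2.21) 0.66, Hpgds (-1.54) -0.13, Gas6 (-1.24) -0.06 and Selenop (-0.96) -0.05. Ankrd37 (1.74) was at weakest 1.44 and Fcrls (-2.54) -2.35. Between libraries, the medians of the hypoxia (0.64 to 0.88), glycolysis (0.50 to 0.71), interferon-gamma (0.47 to 0.78), monocyte marker (0.13 to 0.80), macrophage maturation (-0.69 to -0.05) and proliferation (-1.26 to -0.47) lists kept their sign in all 12 alternatives. The class II median changed sign in 6 and the type I interferon median in 3. Against cells without Ly6c2, the mean log2 ratio of Ccr9 was 3.88 and at lowest 0.20. The number of cells and UMIs limits the precision of every level, and variation between mice was not measured.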
